A study of Mus musculus with 14 samples.

Results

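The transcripts uc009rgf.1, uc012dpf.2 and uc012dpg.1 are described here, 3 of 63244 listed. They were chosen on their values, because each differed between Rbp7 knockout (KO) and wild-type (WT) arteries in an earlier fit of these data and lay outside the stretch of identifiers where most such rows were found. All 3 passed the filter on low values, as did 29304 transcripts in all. The libraries were made from carotid arteries of male C57BL/6J mice, RBP7 wild-type or RBP7 knock-out, with DMSO, the solvent, or with rosiglitazone at 10 µM, each for 24 h. There were 3 WT DMSO, 3 WT rosiglitazone, 4 KO DMSO and 4 KO rosiglitazone libraries. By one label the arteries were treated after removal, by another the mice were. The sources used here do not give the age of the mice, the way the knockout was made or whether replicates were separate animals. A p-value therefore measures spread among libraries, which may be technical.

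RBP7 is a cytosolic carrier of retinoids, and rosiglitazone activates the nuclear receptor PPARγ, which pairs with a retinoid X receptor on DNA to switch on genes of lipid handling. The rows of the table are transcripts, and 1 gene can give several of them through different start sites, splicing or ends. The files do not pair the identifiers with gene names, and 0 of them were found in the gene tables at hand. The members' genes, roles and sequences are therefore not given here. Markers of artery cell types and the level of Rbp7 could not be looked up either, so neither the tissue nor the genotype labels were checked.

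The unit is TPM, a transcript's share per length after scaling each library to the same total. Since TPM discards read depth, the precision of a single value is unknown. The 2 KO libraries of replicate number 4 stood apart from the other 12. Their 2 most abundant transcripts held 33.2% (DMSO) and 37.5% (rosiglitazone) of the TPM, against 41.8% to 48.8% in the others, and they listed 27686 and 26716 transcripts at 1 TPM or more, against 23996 to 26179. Sample numbers in the labels run from 2 to 5 and from 18 to 21 in KO and from 6 to 11 in WT. No range of numbers held both genotypes, so genotype cannot be told apart from whatever was particular to a range.

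Transcript uc009rgf.1 was low in every KO library. The WT DMSO libraries had 15.2, 10.3 and 11.9 TPM, and those with rosiglitazone had 13.9, 8.60 and 11.4 TPM. In KO the values were 1.24, 0.93, 3.99 and 1.55 TPM with DMSO and 0.72, 1.67, 2.76 and 1.03 TPM with the drug. The lowest WT library, at 8.60 TPM, lay above the highest KO library, at 3.99 TPM. The highest KO value in each treatment came from replicate 3. In bulk tissue, fewer cells of a type and less RNA per cell cannot be told apart.

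Transcript uc012dpf.2 was also low in every KO library, with less spread. Its level in WT was 11.4, 12.4 and 12.4 TPM with DMSO and 9.38, 12.1 and 13.8 TPM with the drug. In KO it measured 2.49, 2.38, 1.49 and 2.47 TPM with DMSO and 2.18, 2.27, 1.71 and 1.29 TPM with the drug. The genotypes did not overlap, since the lowest WT value was 9.38 TPM and the highest KO value was 2.49 TPM.

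Transcript uc012dpg.1, next in the order of identifiers, was high in every KO library. The WT libraries had 4.29, 4.13 and 5.98 TPM with DMSO and 6.34, 4.32 and 6.54 TPM with the drug. In KO it measured 13.9, 20.4, 13.5 and 22.2 TPM with DMSO and 11.99, 13.01, 14.9 and 16.9 TPM with the drug. The highest WT value, 6.54 TPM, lay below the lowest KO value, 11.99 TPM. In KO DMSO the values fell into a lower and an upper pair, and the upper pair lay above every KO rosiglitazone library. Replicate 4, whose libraries stood apart as described above, gave the highest KO value in each treatment.

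**Figure D1:**
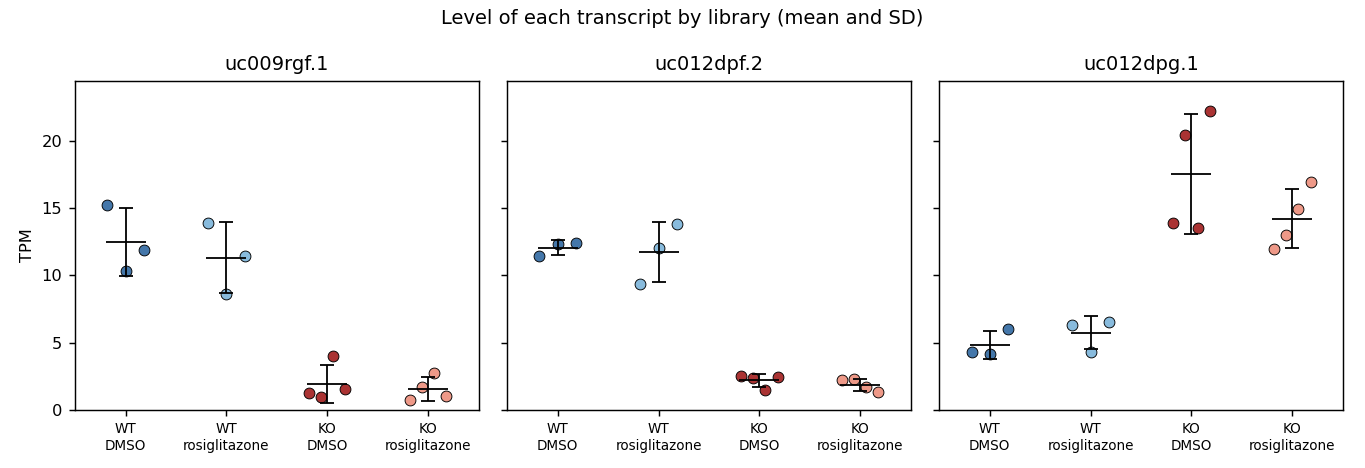
TPM of uc009rgf.1, uc012dpf.2 and uc012dpg.1 in each library (points, ordered by replicate number) with the mean and SD of each group (bars); n = 3 per WT group and 4 per KO group. The first pair of transcripts lies between 8.60 and 15.2 TPM in WT and at or below 3.99 TPM in KO, while uc012dpg.1 lies at or below 6.54 TPM in WT and between 11.99 and 22.2 TPM in KO.

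Differences were fitted for all tested transcripts on log2(TPM + 1), which understates the change of low transcripts, with limma and adjusted p-values over the whole table. In DMSO 15 transcripts (0.0512% of those tested) passed an adjusted p of 0.05 for KO against WT, among them all 3 members: uc009rgf.1 and uc012dpf.2 were 2 of 8 lower in KO (0.0273%), and uc012dpg.1 was 1 of 7 higher (0.0239%). In rosiglitazone 12 (0.041%) passed, among them uc009rgf.1 and uc012dpf.2, again of 8 lower ones (0.0273%). Scaling by median of ratios gave 6 higher and 11 lower in DMSO. The members were chosen from this contrast, so their differences are a description and nothing is read from these counts. The call of uc009rgf.1 ended in 5 of 11 alternative settings and in 6 of 14 fits that left out 1 library, in each treatment. The DMSO call of uc012dpg.1 ended in 2 and 1 of these, and that of uc012dpf.2 in 0.

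For uc009rgf.1, KO minus WT was -2.29 (SE 0.33) on the log2 scale in DMSO and -2.31 (SE 0.33) in rosiglitazone. The WT mean was 6.47 times the KO mean in DMSO and 7.31 times in rosiglitazone. For uc012dpf.2 the log2 differences were -2.04 (SE 0.18) and -2.16 (SE 0.18), with WT means 5.47 and 6.32 times the KO means. For uc012dpg.1 they were 1.66 (SE 0.21) and 1.18 (SE 0.21), with KO means 3.65 and 2.48 times the WT means. Over all transcripts tested the median difference was 0.08 in DMSO and 0.05 in rosiglitazone. The direction was the same in both treatments for each member, but both contrasts were used to choose the members, so nothing is read from this.

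Ranks among all tested transcripts restate the levels on which the members were chosen. In DMSO, uc009rgf.1 exceeded 77.5% of tested transcripts in WT and 27.0% in KO by its mean. The shares for uc012dpf.2 were 76.9% and 31.1%. Those for uc012dpg.1 ran the other way, from 55.9% in WT to 82.3% in KO.

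Ordered by mean level, uc009rgf.1 was highest in WT DMSO (12.5 ± 2.51 TPM, SD, n = 3), then WT rosiglitazone (11.3 ± 2.64, SD, n = 3), KO DMSO (1.93 ± 1.40, SD, n = 4) and KO rosiglitazone (1.54 ± 0.90, SD, n = 4). The order was the same for uc012dpf.2, at 12.1 ± 0.57 and 11.8 ± 2.24 TPM for WT (SD, both n = 3), then 2.21 ± 0.48 and 1.86 ± 0.45 TPM for KO (SD, both n = 4). For uc012dpg.1 the order was KO DMSO (17.5 ± 4.46 TPM, SD, n = 4), KO rosiglitazone (14.2 ± 2.18, SD, n = 4), WT rosiglitazone (5.73 ± 1.23, SD, n = 3) and WT DMSO (4.80 ± 1.03, SD, n = 3). Within a genotype the ranges of both treatments overlapped for each member. The step from WT to KO was the only one in each order without overlap. The members were chosen for a difference at this step, so nothing is read from it. Over all tested transcripts 0.167% separated the genotypes in this way.

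The adjacent rows uc012dpf.2 and uc012dpg.1, chosen for differences that ran in opposite directions, had sums that overlapped between genotypes. An exchange between them was not tested. In WT their summed level was 15.7, 16.5 and 18.4 TPM with DMSO and 15.7, 16.4 and 20.4 TPM with the drug. In KO it was 16.4, 22.8, 15 and 24.7 TPM with DMSO and 14.2, 15.3, 16.7 and 18.2 TPM with the drug. The KO sums spread more widely: 5 of 8 lay outside the WT range, 2 above it (KO DMSO replicates 2 and 4) and 3 below it. By treatment the KO mean was 1.17 times the WT mean in DMSO (19.7 ± 4.74 TPM, SD, n = 4, against 16.9 ± 1.39, SD, n = 3) and 0.919 times in rosiglitazone (16.1 ± 1.75, SD, n = 4, against 17.5 ± 2.51, SD, n = 3).

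The share of the pair held by uc012dpf.2 restates these levels. Each row was chosen for its genotype difference, and they differed in opposite directions without overlap. That the share set the genotypes apart was therefore built in. It was 72.7%, 75.0% and 67.5% in WT DMSO and 59.7%, 73.7% and 67.9% in WT rosiglitazone. In KO DMSO it was 15.2%, 10.4%, 9.93% and 10.0%, and in KO rosiglitazone it was 15.4%, 14.8%, 10.3% and 7.08%. The mean share was 69.4% ± 5.66 in WT (SD, n = 6) and 11.6% ± 3.08 in KO (SD, n = 8). These are values of chosen rows and were not tested. Whether both rows belong to 1 gene is not known from the files, and TPM estimates divide reads among transcripts that share sequence.

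**Figure D2:**
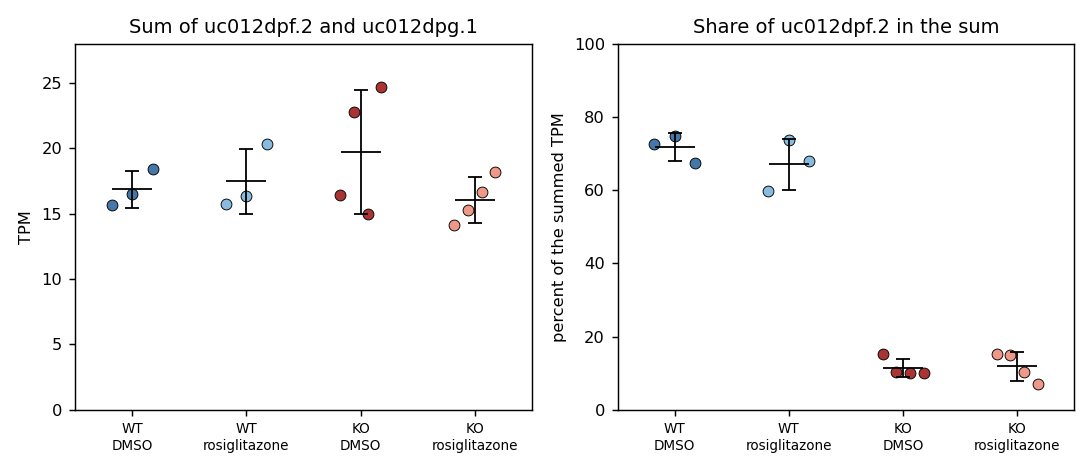
Left, summed TPM of uc012dpf.2 and uc012dpg.1 by library; right, the percentage of that sum held by uc012dpf.2. Points are libraries and bars are the mean and SD of each group (n = 3 per WT and 4 per KO group). Sums overlap between genotypes, from 14.2 to 24.7 TPM in KO and 15.7 to 20.4 TPM in WT, while shares run from 7.08% to 15.4% in KO and from 59.7% to 75.0% in WT. The gap between shares was built in by the choice of the rows.

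The response to the drug was not the contrast that chose these rows, but it uses the same libraries and is not independent of that choice. None of the 3 responses in WT passed the threshold, in a comparison where limma called 1 transcript in all (0.00341%). None passed in KO either, where 4 were called (0.0137%). At an unadjusted p under 0.05 the count was 0 of 3 in each genotype, against 3.51% of all transcripts in WT and 4.5% in KO. In WT the log2 response to rosiglitazone was -0.14 for uc009rgf.1 (95% interval -0.90 to 0.62, adjusted p = 1.00), -0.05 for uc012dpf.2 (-0.47 to 0.37, adjusted p = 1.00) and 0.21 for uc012dpg.1 (-0.27 to 0.69, adjusted p = 1.00). In KO it was -0.16 (-0.82 to 0.49, adjusted p = 0.974), -0.17 (-0.53 to 0.20, adjusted p = 0.967) and -0.26 (-0.68 to 0.15, adjusted p = 0.967) in the same order. These 6 intervals treat the libraries as unpaired and lie within 1 log2 unit of 0 on this scale. Those of uc009rgf.1 reach past -1 with a pseudocount of 0.1, which gave -0.15 (SE 0.50) for WT and -0.25 (SE 0.44) for KO, and in some fits that left out 1 library.

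The interaction term, the difference in response between genotypes, passed for 2 transcripts in all (0.00683%) and for none of the members. At an unadjusted p under 0.05 it was 0 of 3 members and 2.14% of all. This term is the difference between both contrasts that chose the rows, so its values are a description and nothing is read from these counts. The KO response minus the WT response was -0.02 for uc009rgf.1 (95% interval -1.03 to 0.98) and -0.12 for uc012dpf.2 (-0.67 to 0.44). For uc012dpg.1 it was -0.47 (-1.11 to 0.16). That uc012dpg.1 passed in DMSO but not in rosiglitazone is not shown to be a difference between them.

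**Figure D3:**
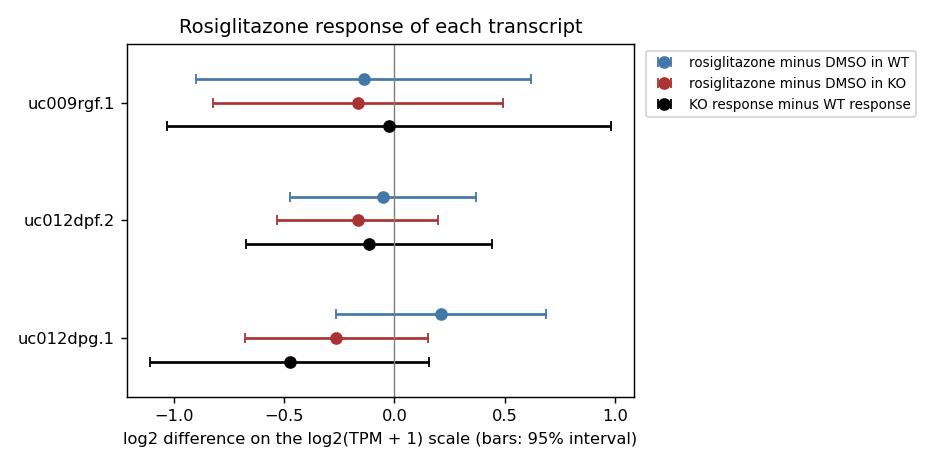
Log2 difference on the log2(TPM + 1) scale (horizontal axis) between rosiglitazone and DMSO in WT and in KO, and the KO response minus the WT response, for the 3 transcripts; points are estimates from the fit over 14 libraries and bars are 95% intervals. Every interval includes 0, and the estimates run from -0.47 to 0.21.

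Within KO the members were compared between sample numbers 2 to 5 and 18 to 21, 2 libraries per treatment in each. Transcript uc009rgf.1 had 0.72 to 1.67 TPM in the lower numbers and 1.03 to 3.99 TPM in the higher ones (log2 difference 0.57, SE 0.28, adjusted p = 0.427). For uc012dpf.2 the ranges were 2.18 to 2.49 and 1.29 to 2.47 TPM (-0.30, SE 0.16, adjusted p = 0.463), and for uc012dpg.1 they were 11.99 to 20.4 and 13.5 to 22.2 TPM (0.18, SE 0.19, adjusted p = 0.699). The adjusted p is limma's, and 95 of all transcripts (0.324%) passed; at an unadjusted p under 0.05 it was 0 of 3 members and 12.5% of all. These values moved with the settings. For uc009rgf.1 the difference was 0.24 with a pseudocount of 5 and 1.04 without both KO libraries of replicate number 4 (limma adjusted p = 0.155, range 0.155 to 0.681 over the alternatives). Leaving out replicate 3 gave 0.33 where the KO DMSO library was dropped and 0.35 where the KO rosiglitazone one was. With a pseudocount of 0.1, uc009rgf.1 (0.86) and uc012dpf.2 (-0.44) had an unadjusted p under 0.05. Each KO range, in either set of numbers, lay outside the WT range of the same transcript. Without the libraries numbered 18 to 21 the genotype differences were -2.68 and -2.50 for uc009rgf.1, -1.93 and -1.97 for uc012dpf.2, and 1.64 and 1.02 for uc012dpg.1 in DMSO and rosiglitazone. Without both KO libraries of replicate number 4 they were -2.26 and -2.23, -2.08 and -2.05, and 1.54 and 1.101.

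The rows next to the members were read for context, 10 on each side in the order of identifiers. Neighbouring identifiers need not mark neighbouring genes. Around uc009rgf.1, 14 of 20 rows passed the filter, and 0 of these were called for KO against WT in either treatment by limma. At an unadjusted p under 0.05 the count was 1 of 14 in each treatment (uc009rgh.1 in DMSO, log2 difference -0.90; uc009rgq.1 in rosiglitazone, 0.99), against 3.63% of all transcripts in DMSO and 2.89% in rosiglitazone. The row before it, uc009rge.1, measured 1.19 to 2.83 TPM in WT and 0.66 to 3.49 TPM in KO. The row after it, uc009rgg.1, measured 10.6 to 12.5 TPM in WT and 9.76 to 14.4 TPM in KO. Neither set of values separated the genotypes. Over all 14 libraries 0 of the 14 tested neighbours did so, against 0.167% of all transcripts. Within 1 treatment, uc009rgm.1 in DMSO and uc009rgq.1 in rosiglitazone were higher in KO without overlap. The share of all transcripts higher in KO within 1 treatment was not counted.

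The summed level of the 20 rows around uc009rgf.1, without that row, was 155.5 to 190.9 TPM in WT and 135.9 to 185.6 TPM in KO. The log2 difference between KO and WT means was -0.01 in DMSO and 0.02 in rosiglitazone (exact two-sided permutation tests, p = 0.857 each, adjusted over 4 tests 0.857). The smallest p that 3 against 4 libraries allow in this test is 0.0571, so the design cannot reach the threshold.

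Around uc012dpf.2 and uc012dpg.1, 10 of 20 rows passed the filter, and 4 were at 0 in every library. Of the 10, 0 were called by limma in either treatment, and 4 in DMSO and 3 in rosiglitazone had an unadjusted p under 0.05, against 3.63% and 2.89% of all transcripts. These were uc012doy.1, uc012dpq.2 and uc012dpr.1 in both and uc012dpm.2 in DMSO. One of them, uc012dpq.2, 9 rows after uc012dpg.1, was higher in all 8 KO libraries than in any WT library. Its values in WT were 3.13, 2.26 and 7.26 TPM with DMSO and 3.77, 0.0047 and 3.82 TPM with the drug. In KO they were 9.84, 12.1, 11.99 and 14.5 TPM with DMSO and 11.8, 10.4, 7.47 and 14.8 TPM with the drug. The gap was narrow, from 7.26 to 7.47 TPM, and neither difference passed in limma, at 1.44 with DMSO (SE 0.48, adjusted p = 0.992) and 2.05 with the drug (SE 0.48, adjusted p = 0.564). Over all tested transcripts, 49 (0.167%) separated the genotypes without overlap, the 3 members and uc012dpq.2 included: 27 were lower in KO (0.0921%) and 22 higher (0.0751%). Among rows that failed the filter, uc012dou.1, 10 rows before uc012dpf.2, was at 0 in every WT library. In KO it had 0.148 to 1.07 TPM, values near the floor that were not tested.

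Transcript uc012doy.1, 7 rows before uc012dpf.2, was lower in KO within each treatment. With DMSO it had 6.89, 4.30 and 5.01 TPM in WT against 1.70, 3.31, 1.42 and 4.01 TPM in KO. The rosiglitazone libraries gave 6.49, 5.05 and 3.73 TPM for WT against 1.74, 1.53, 1.17 and 1.02 TPM in KO. The log2 difference was -0.87 with DMSO (SE 0.27, limma adjusted p = 0.992) and -1.35 with the drug (SE 0.27, limma adjusted p = 0.257). Without overlap in DMSO, 2 of the 10 tested rows were lower in KO (uc012doy.1 and uc012dpr.1) and 2 higher (uc012dov.1 and uc012dpq.2). In rosiglitazone 1 was lower (uc012doy.1) and 1 higher (uc012dpq.2). Of all transcripts, 1.44% were lower in KO without overlap in DMSO and 1.36% in rosiglitazone, and the share higher was not counted. Another row, uc012dpk.1, was listed between 4.97 and 17.8 TPM in 9 libraries and at or below 0.0017 TPM in the other 5. Both genotypes held libraries of each kind.

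The summed level of the 20 rows around this pair was 68.8 to 88.6 TPM in WT and 60.9 to 106.5 TPM in KO. Its log2 differences were 0.07 in DMSO (exact two-sided permutation test, p = 0.8) and -0.12 in rosiglitazone (p = 0.629, exact), both 0.857 when adjusted over the 4 tests. The smallest p that this test allows is again 0.0571, so it could not reach the threshold. The sum also adds rows that differed in opposite directions, such as uc012dpq.2 (higher in KO) and uc012doy.1 (lower). The 2 highest KO sums came from the libraries of replicate number 4, and without them the KO range ended at 80.9 TPM.

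**Figure D4:**
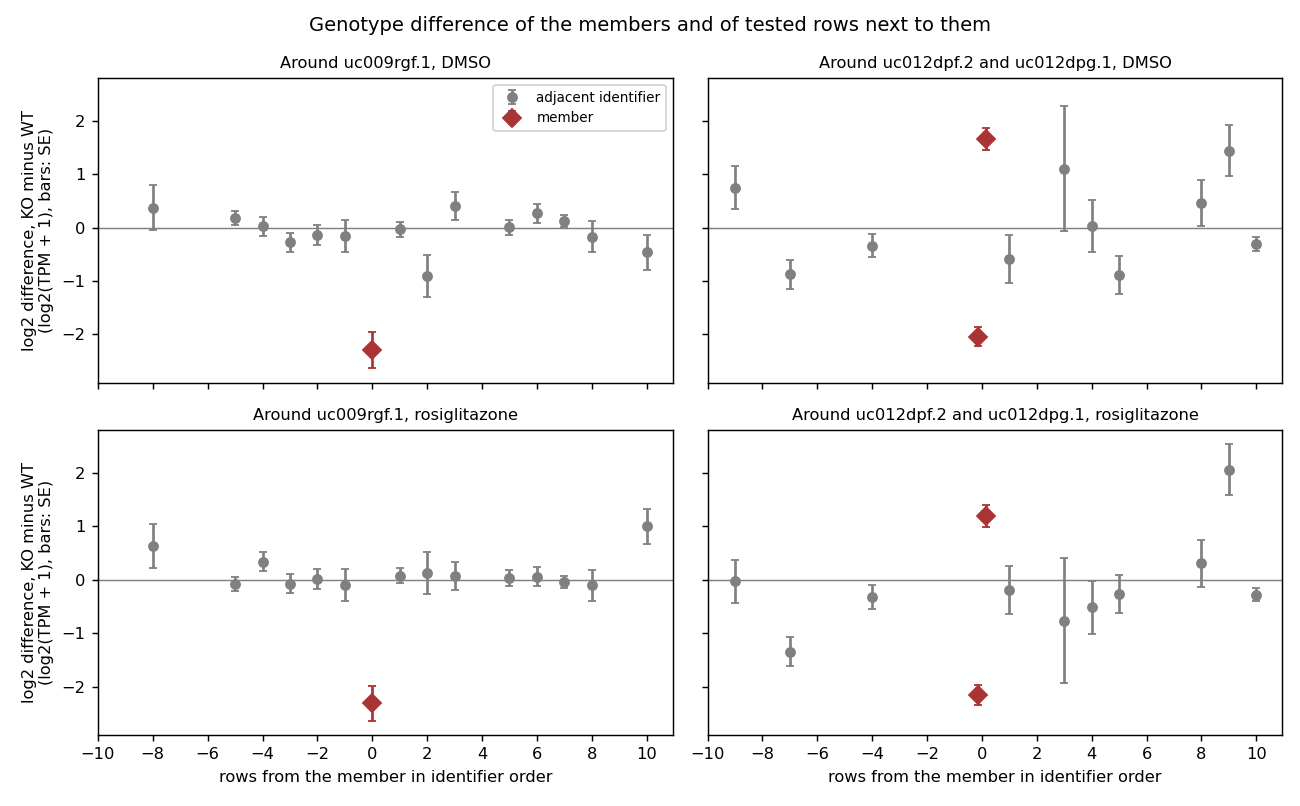
Log2 difference, KO minus WT, on the log2(TPM + 1) scale (vertical axis, bars are SE) for the members (diamonds) and the tested rows around them (circles), by distance in rows (horizontal axis); upper panels DMSO, lower panels rosiglitazone. Around uc009rgf.1 the circles lie between -0.90 and 0.99 and the member at -2.29 and -2.31. Around the pair, uc012dpf.2 lies at -2.04 and -2.16, uc012dpg.1 at 1.66 and 1.18, and uc012dpq.2, 9 rows on, at 1.44 and 2.05.

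Likeness of pattern was measured as Pearson's r of log2(TPM + 1) over the 14 libraries and is a description, since the points share library totals and the genotype split. Between members r was 0.90 for uc009rgf.1 and uc012dpf.2, -0.89 for uc009rgf.1 and uc012dpg.1, and -0.91 within the pair. With the group means taken out these became -0.53, -0.10 and 0.01. The r over all libraries thus rested on the differences between group means.

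Apart from each other, the 3 transcripts most like uc009rgf.1 included uc008vta.2 (r = 0.93) and uc033igm.1 (r = 0.90), and the most opposite were uc008vwh.1 (r = -0.95) and uc008vwd.1 (r = -0.92). For uc012dpf.2 the closest were uc033igm.1 and uc008vsh.3, which have the same value in every library (r = 0.96 each), and uc008vta.2 (r = 0.95). The most opposite to it were uc008vwh.1 (r = -0.94) and uc008vtf.1 (r = -0.92). For uc012dpg.1 the closest were uc008vwd.1 (r = 0.95), uc008vtf.1 (r = 0.95) and uc008vtt.1 (r = 0.94), and beside uc012dpf.2 the most opposite was uc029vau.1 (r = -0.90). Of these 8 transcripts, 6 have identifiers that begin with uc008v, and all 8 separated the genotypes without overlap, against 0.167% of all tested transcripts. They were picked for likeness to rows chosen on genotype, so separation is largely built in. The share of uc008v identifiers over all transcripts was not counted, and nothing is read from these counts.

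Once group means were taken out, none of those 8 was among the closest 2. These were then uc008rcx.1 (r = 0.90) and uc007nwo.2 (r = 0.88) for uc009rgf.1, uc009utu.1 (r = 0.94) and uc008ois.1 (r = 0.91) for uc012dpf.2, and uc008ohp.2 (r = 0.96) and uc007kwy.2 (r = 0.94) for uc012dpg.1. They were picked as the highest r of all tested transcripts and were not tested, so nothing is read from them. By group mean, uc009utu.1, uc008ohp.2 and uc007kwy.2 were low, at 0.757 to 1.25 TPM, and the rest lay at 18.07 TPM or more.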

How the data were processed

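RNA sequencing of 14 carotid artery libraries was analysed. The authors deposited 1 table of TPM values for 63244 transcripts, and per the submitters' processing notes kallisto, sleuth and FastQC were used with GRCm38 (mm10). Tool versions, strand settings and the annotation of transcripts: not given in the sources used here. Each column was tied to its sample through the number that opens the sample's label, and 0 pairs of columns were identical.

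The filter kept 29304 transcripts that reached 1 TPM in 3 or more libraries. One mean per group was fitted to log2(TPM + 1) with limma 3.58.1 in R 4.3.3, with an abundance trend, two-sided tests and Benjamini-Hochberg adjustment over all tested transcripts (threshold 0.05). Sums of neighbouring rows were tested with exact permutation tests in scipy 1.17.1. The code was tested on simulated data.

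The members and lists were chosen with earlier results of these data known. Named rows are the members, the 10 rows on each side, the 3 most and 2 least correlated transcripts, and the 2 most correlated with group means taken out. Rows singled out among the neighbours were chosen after their values were seen. Marker lists for artery cell types and PPARγ targets were not tested, because 0 identifiers matched symbols. Alternatives covered the pseudocount, filter, scaling, variance trend, groups fitted, replicate block, identical rows and left-out libraries, each with the filter applied to the libraries in the fit. A fit without the pair of KO libraries of replicate number 4 was added after seeing the data.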

Additional observations from a re-analysis of the deposited data

Results flagged for a closer look

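In 26 sets of 4 KO values, the gap between 1 library and its nearest neighbour was divided by the range of the set, and 4 sets passed the critical value for 4 samples (Dixon's test at 95%). Chance flags about 1 group in 20, and several sets describe the same library or the same reads. For uc012dpf.2 in KO DMSO the ratio was 0.888, because replicate 3, at 1.49 TPM, lay below the others at 2.38 to 2.49 TPM. For the share of the pair held by uc012dpf.2 in KO DMSO it was 0.903, because replicate 1, at 15.2%, lay above the others at 9.93% to 10.4%. The low rows uc009rgh.1 and uc009rgq.1 near uc009rgf.1 had a ratio of 1 in KO DMSO, since replicate 2 alone was above 0, at 0.726 and 0.751 TPM.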

How the results depend on the processing

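The direction of all 3 genotype differences held in both treatments under 11 alternative settings and 14 left-out libraries. The members were chosen on this contrast, and their KO and WT libraries did not overlap. Leaving out 1 library or changing the pseudocount therefore could not reverse a direction. The calls of uc012dpf.2 held in all of these (adjusted p 0.00035 to 0.0154 in DMSO and 0.00034 to 0.0235 in rosiglitazone, limma). Those of uc009rgf.1 ended, in DMSO and rosiglitazone, with a pseudocount of 0.1 (-2.83 and -2.93), without a filter on low TPM (-2.29 and -2.31), with only the groups of the comparison (-2.29 and -2.31), without both KO libraries of replicate number 4 (-2.26 and -2.23) and with the replicate block (-2.23 and -2.26). In each treatment they also ended without WT replicate 1, 2 or 3 or KO replicate 1, 2 or 4 of that treatment. Left-out libraries gave -2.58 to -2.12 and -2.52 to -2.15, with adjusted p up to 0.149 and 0.215. The DMSO call of uc012dpg.1 ended with only the groups of the comparison (1.66), without the KO libraries numbered 18 to 21 (1.64) and without WT DMSO replicate 2 (1.58; range over left-out libraries 1.54 to 1.80). In rosiglitazone it passed with median-of-ratios scaling (1.13, adjusted p = 0.0238; 0.0238 to 0.667 over the 11 settings). The cause was not tested. A pseudocount of 5 gave the smallest differences, -1.35 and -1.31 for uc009rgf.1.

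No drug response or interaction of a member passed in any setting, and those near 0 changed sign. The interaction of uc009rgf.1 was 0.0323 with a pseudocount of 5, 0.18 without the libraries numbered 18 to 21 and 0.0326 without both KO libraries of replicate number 4 (-0.23 to 0.27 over left-out libraries), and in the last of these settings that of uc012dpf.2 was 0.0286 and the sample-number difference of uc012dpg.1 was -0.0303. The response of uc012dpf.2 in WT was 0.0230 with median-of-ratios scaling (-0.17 to 0.0913 over left-out libraries). That of uc009rgf.1 in KO was 0.0435 without the libraries numbered 18 to 21 (-0.37 to 0.13), and in WT it ran from -0.29 to 0.0278.

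Counts of all called transcripts moved as follows. For KO against WT in DMSO, left-out libraries gave 9 to 17 (9 without WT DMSO replicate 2), and median-of-ratios scaling gave 6 higher and 11 lower against 7 and 8. In rosiglitazone they gave 2 to 16 (2, 4 and 4 without WT replicates 1, 2 and 3, 7 without KO replicate 3), and the replicate block gave 7. For the drug in WT the count was 3 and 2 with pseudocounts of 0.1 and 5, 5 without a filter, 2 with scaling, 8 with only its groups, 4 with the replicate block, 7 without the libraries numbered 18 to 21 and 6 without both KO libraries of replicate number 4. It was 1 to 3 over left-out libraries (3 when replicate 1 of WT DMSO or 3 of WT rosiglitazone was left out, 2 for replicate 3 of WT DMSO, 1 of WT rosiglitazone, 1 or 4 of KO DMSO and 4 of KO rosiglitazone). In KO it was 2 with a pseudocount of 5 or only its groups, 1 with the block, 7 without the libraries numbered 18 to 21, and 2 to 8 over left-out libraries (2 without KO DMSO replicate 4, 8 without KO rosiglitazone replicate 1). For the interaction it was 4 and 1 with pseudocounts of 0.1 and 5, 5 without a filter, 6 without the libraries numbered 18 to 21, 5 without both of replicate number 4, and 2 to 6 over left-out libraries (4 without WT DMSO replicate 1, 6 without KO rosiglitazone replicate 4).

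Equal replicate numbers were not fitted as pairs. Within a genotype, same-numbered DMSO and rosiglitazone libraries had adjacent sample numbers, such as 7 and 6 in WT and 20 and 21 in KO. The sources used here do not say whether these were pairs. Deviations of same-numbered libraries correlated at 0.00056 to 0.0502 between genotypes in DMSO, at -0.154 to 0.0560 in rosiglitazone, and between treatments at 0.0939 to 0.115 in WT and 0.0718 to 0.219 in KO. Between treatments every value was positive, so a pairing within a genotype is not excluded. The replicate block gave each number 1 effect shared by both genotypes, so pairs within a genotype were not fitted. The drug responses and their intervals therefore leave such pairs unused. Among the members the block ended no call but those of uc009rgf.1. Unknown depth limits what can be said of low values.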
